A study of Rattus norvegicus with 24 samples.

Results

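The ubiquitin-specific proteases were examined in the tibialis anterior (TA), the main muscle that lifts the foot, of aged rats whose muscle was silenced, allowed to recover and silenced again. The family was taken as every gene whose symbol begins with Usp followed by a digit, which gave 46 of 13458 symbols. Where a symbol had more than 1 row the row with the highest mean was used, which mattered for Usp4 and Usp9x (48 rows in all). The rule works on names, used levels only to pick that row and used no difference between groups. It takes in Usp6nl, which encodes a GTPase-activating protein, a type that switches Rab GTPases off, and not a protease. It also takes in Usp39, a splicing protein that lacks the protease activity.

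RNA from both limbs of 12 male Fischer 344 rats (23 ± 1 months) was sequenced, which gave 24 limbs. In 9 animals the left common peroneal nerve received tetrodotoxin (TTX), a sodium channel blocker that stops nerve impulses, from an implanted pump. The left limbs formed the atrophy group after 6 to 7 days of TTX (n = 3), the recovery group after a further 9 days without it (n = 3), and the repeated atrophy group when TTX was then given a second time for 5 to 6 days (n = 3). The right limbs of these 9 animals, which were not operated, were the control group (n = 9), and 3 sham animals, 1 for each time point, had surgery without TTX and gave 3 left and 3 right limbs. The untreated limb belongs to an animal with a silenced muscle on the other side, and every animal was aged, so the model has neither a young nor an untouched control. RNA came from whole muscle, in which fewer cells of a type and less RNA per cell cannot be told apart.

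Ubiquitin is a small protein that is joined to other proteins, singly or in chains, and many chains send their carrier to the proteasome for destruction. Deubiquitinases cut ubiquitin off again, which can spare the carrier, switch off a signal or return ubiquitin for further use. The ubiquitin-specific proteases are the largest of their families in mammals and are cysteine proteases. In skeletal muscle the ubiquitin-proteasome system is known for the breakdown of contractile protein during disuse, and a few Usp members, Usp19 and Usp14 among them, have been studied in muscle wasting.

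Levels are given in counts per 1000000 (CPM) rescaled by a median of ratios, and differences as log2 fold changes on the log2(CPM + 1) scale with the standard error (SE). A gene passed the test where limma gave an adjusted p no higher than 0.05, adjusted over all rows, and the fold change was 1.2 or more. The inferred depth ran from 19 to 31 per limb, in units of 1000000 reads. The search for it had an upper limit, and the paper's methods give a larger number of aligned reads for the rat samples. The inferred figure therefore need not be the sequenced depth. The 10 highest rows held between 13.0% and 32.8% of the CPM of a limb. The summed level of 7 skeletal muscle fibre markers was 174200 CPM (113500 to 227200) in control, 74430 after atrophy (48030 to 124400), 151200 in recovery (136100 to 160500), 87560 after repeated atrophy (72230 to 107400) and 109700 in sham left limbs (77740 to 141700). With CPM as deposited the median difference of all rows tested was 0.22 after atrophy and 0.20 after repeated atrophy on the log2 scale, and the rescaled values put these medians at -0.002 and -0.009. The part of the muscle fibre markers in this was not tested. The atrophy limbs differed in how far they lay from control, and no Usp member passed after atrophy without animal 362 or without animal 372 (limma, 5 and 17 members at an unadjusted p under 0.05), whereas 12 passed without animal 367. The share of all rows that passed moved too. It was 0% without animal 362, 1.4% without animal 372, and 8.86% higher and 8.99% lower without animal 367. Beside single members the range over these 3 fits is given.

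Of the 46 members, 41 were at or above 1 CPM in control, 32 at or above 10 CPM and 9 at or above 100 CPM. Together they held 2760 ± 211 CPM (SD, n = 9) in control. Per kilobase of exon the order in control was led by Usp13 at 87.3 ± 11.2 CPM per kb (SD, n = 9), Usp2 at 61.6 ± 11.47, Usp4 at 47.9 ± 9.6, Usp47 at 41.9 ± 4.8 and Usp15 at 38.4 ± 7.3. Usp13 is the close relative of Usp5, and Usp4, Usp11 and Usp15 are relatives of one another, of which Usp11 was far lower at 2.62 ± 0.63 CPM per kb. The 5 members below 1 CPM were Usp29, Usp43, Usp44, Usp51 and Usp9y. No 2 neighbours in this order were separated by their ranges (0 of 45 pairs), so the order is firm only between members that stand well apart.

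**Figure D1:**
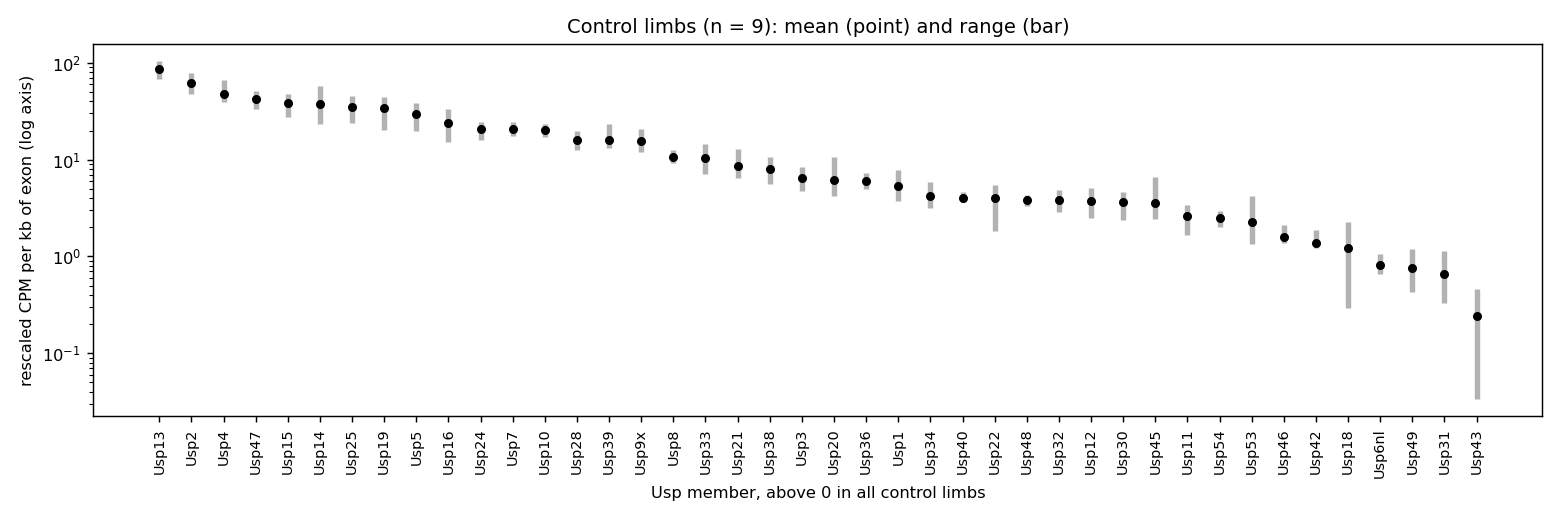
Level of the Usp members in the control limbs (n = 9), in rescaled CPM per kb of exon on a log axis, for the members above 0 in every control limb. Points are means and bars run from the lowest to the highest limb. Usp13 leads at 87.3 CPM per kb, and the bars of neighbours overlap.

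The filter on low values (above 0 in at least 3 limbs) left 44 members to test in the TTX animals. Usp51 and Usp9y did not reach it. On the rescaled values single members differed from control in opposite directions, with medians over the family near 0, whereas with CPM as deposited the calls after atrophy and repeated atrophy were on the high side alone, as given with the scales. After repeated atrophy 10 members were higher and 7 lower than control. After atrophy 2 were higher and 2 lower, and in recovery 1 was higher and 4 lower. The background was 13.2% of all 14031 rows higher and 12% lower after repeated atrophy, 4.57% and 5.17% after atrophy, and 6.24% and 5.87% in recovery. Among rows with a mean of at least 1 CPM the background after repeated atrophy was 17.3% higher and 16.9% lower, with 10 and 8 of 41 members. The counts of members are therefore read as a description of single genes and not as a property of the family. The median log2 fold change over the members tested was 0.06 after atrophy, -0.09 in recovery and 0.01 after repeated atrophy, beside -0.002, 0.014 and -0.009 over all rows. In all, 21 members passed in at least 1 of the 3 comparisons and 23 in none. The matching share over all rows is not given here, and 25.2% of rows passed after repeated atrophy alone. This count is thus not read as a property of the family either. These comparisons share the same 9 control limbs. Leaving out repeated atrophy animal 365 left 5 members higher and 2 lower after repeated atrophy, and the background fell as well, to 7.63% and 6.71%.

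**Figure D2:**
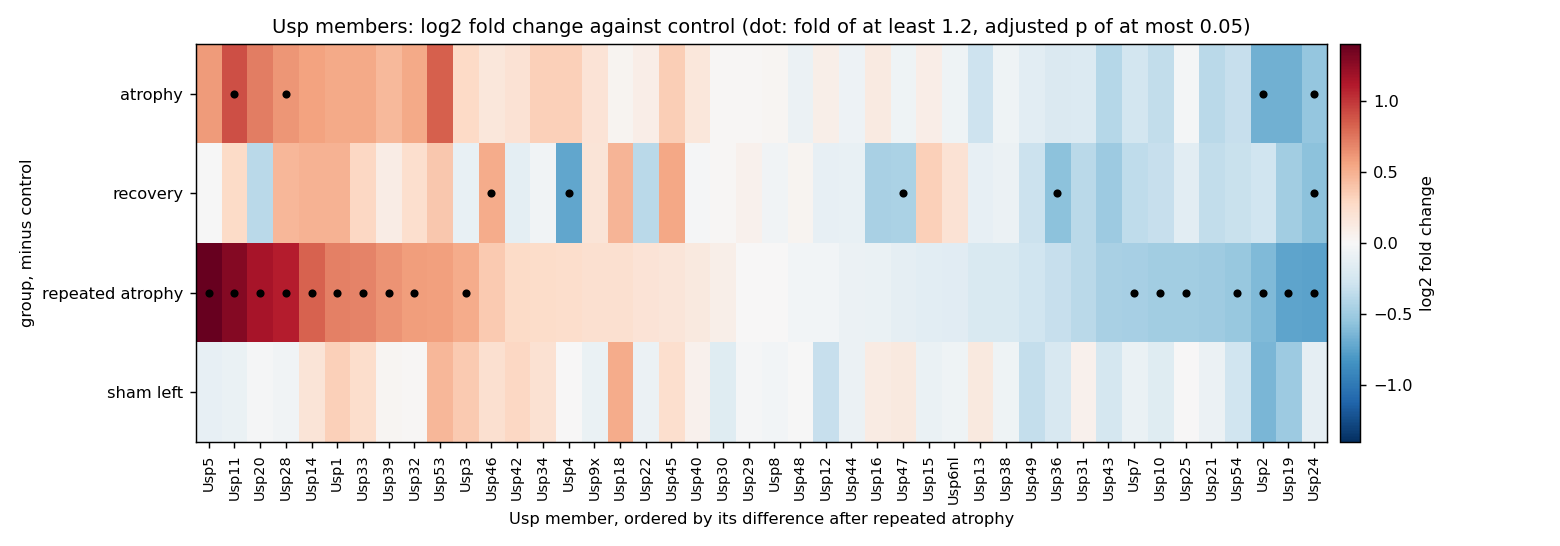
Log2 fold change against control (colour) of the 44 Usp members tested, with the groups in rows and the members ordered by their difference after repeated atrophy. Dots mark members that passed the test: 17 after repeated atrophy, 4 after atrophy, 5 in recovery and 0 in sham left limbs.

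The sham limbs set a floor for these differences. None of the members tested passed in limma in sham left limbs against control, where the background was 0% of 13822 rows and 1 member (Usp2) had an unadjusted p under 0.05. None passed between the left and right limbs of the sham animals, where the background was 0% of 13483 rows and again 1 member was under 0.05. Of the 7 members that were lower after repeated atrophy, 6, 5 and 6 were lower in the left than in the right limb of sham animals 354, 377 and 379, with medians of -0.25, -0.20 and -0.24 on the log2 scale. The 10 members that were higher had sham medians of 0.03, 0.02 and -0.02. Over all 43 members tested between these limbs, 28 were lower on the left, with a median of -0.05 beside 0.003 over all rows.

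Usp5, also called isopeptidase T, takes apart chains of ubiquitin that are no longer joined to any protein and so refills the pool of free ubiquitin. Its row lies at chr4:157619648-157634712 on the minus strand (rn7). The repeated atrophy limbs read 258, 180.3 and 309 CPM, against a lowest, median and highest control limb of 63.7, 94.2 and 122.5 CPM. All 3 lay above every control limb, and the difference was 1.39 (SE 0.19, adjusted p = 0.000105). The atrophy limbs read 150.3, 114 and 162 CPM, which overlapped control, and the difference of 0.60 did not pass (SE 0.19, adjusted p = 0.0557). It ran from 0.55 to 0.70 over the 3 fits that each left out 1 atrophy animal (adjusted p = 0.0322 to 0.34). The recovery limbs read 86.6, 81.3 and 111 CPM, inside the control range, with a difference of -0.001. Repeated atrophy stood 1.39 above recovery (SE 0.24, adjusted p = 0.00131), and no limb of one group reached the other. With animal as a blocking factor this last difference was 1.54 and did not pass (adjusted p = 0.08). Sham left limbs read 63.0, 111 and 88.5 CPM, of which the first lay just below the lowest control limb.

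The other members of the recycling group were Usp14 and Usp13. Usp14, which sits on the proteasome and trims ubiquitin from proteins as they are taken in, rose after repeated atrophy by 0.83 (SE 0.22, adjusted p = 0.0105). The groups overlapped, since the control limb of animal 364 lay above the lowest repeated atrophy limb. Usp13, the most abundant member in control, did not pass in any comparison with control (-0.21 after repeated atrophy).

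Usp11, a nuclear and cytoplasmic protease with a part in the repair of DNA breaks, lies at chrX:1473349-1489521 on the minus strand. Its repeated atrophy limbs read 18.2, 22.4 and 28.0 CPM, and the lowest, median and highest control limbs read 5.70, 9.79 and 11.46 CPM. The groups did not overlap, and the difference was 1.28 (SE 0.23, adjusted p = 0.000647). After atrophy the limbs read 18.5, 10.8 and 24.6 CPM and the difference was 0.90 (SE 0.23, adjusted p = 0.0239). The limb inside the control range was that of animal 367, and the difference ran from 0.70 to 1.25 with 1 atrophy animal left out (adjusted p = 0.00231 to 0.242). Recovery limbs lay at 10.1, 10.6 and 11.2 CPM, among the higher control limbs, and repeated atrophy exceeded them by 1.02 (SE 0.28, adjusted p = 0.017). Within animals the left limb exceeded the right by 1.49, 1.35 and 1.32 in the 3 repeated atrophy animals, and by -0.42, -0.02 and 0.05 in the sham animals.

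Usp28, which is known to stabilise Myc and to act in the response to DNA damage, lies at chr8:49325937-49386230 on the plus strand. Its repeated atrophy limbs read 126, 136 and 168 CPM and lay above every control limb, whose lowest, median and highest values were 52.8, 64.6 and 83.0 CPM. The difference was 1.10 (SE 0.19, adjusted p = 0.000459). After atrophy the limbs read 145, 62.5 and 116 CPM, again with animal 367 inside the control range, and the difference was 0.62 (SE 0.19, adjusted p = 0.0453). With 1 atrophy animal left out it ran from 0.36 to 0.92 (adjusted p = 0.000666 to 0.444). Recovery limbs at 80.6, 92.9 and 101 CPM were 0.46 above control and did not pass (adjusted p = 0.111).

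Usp20, which removes ubiquitin from receptors and other proteins of the endosome and endoplasmic reticulum, lies at chr3:14272938-14306410 on the plus strand. Its repeated atrophy limbs read 79.7, 52.99 and 74.0 CPM, and control had a lowest, median and highest limb of 21.2, 28.4 and 53.3 CPM. The highest control limb, of animal 372, just reached the lowest repeated atrophy limb, and the difference was 1.16 (SE 0.26, adjusted p = 0.00366). The recovery limbs, at 19.3, 18.8 and 32.7 CPM, were the lowest of the TTX groups. The atrophy limbs read 47.5, 35.4 and 72.9 CPM, above control by 0.72 without passing (adjusted p = 0.09), and by 0.55 to 0.92 with 1 atrophy animal left out (adjusted p = 0.0459 to 0.347). Recovery was 1.09 below atrophy (-1.09, SE 0.32, adjusted p = 0.0396) and repeated atrophy was 1.53 above recovery (SE 0.32, adjusted p = 0.00404), and in both cases the limbs did not overlap. With animal as a blocking factor neither passed (adjusted p = 0.666 and 0.156).

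**Figure D3:**
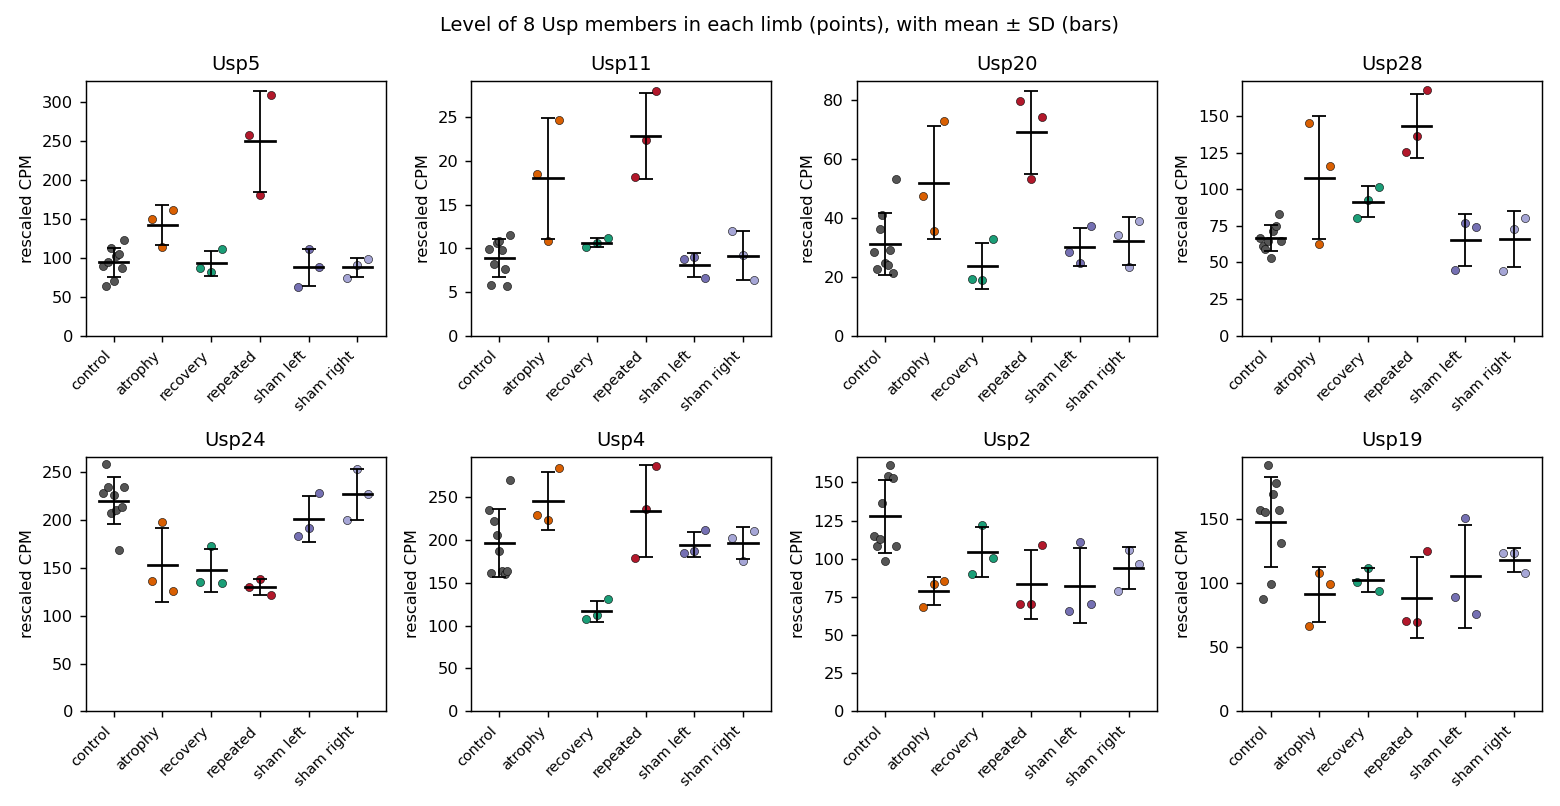
Level of 8 Usp members in rescaled CPM in each limb of the 6 groups (points), with the mean ± SD (bars; n = 9 for control and 3 for each other group). The repeated atrophy limbs of Usp5, Usp11 and Usp28 lie above every control limb, those of Usp24 below, and the recovery limbs of Usp4 lie below every control limb.

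Usp5, Usp11, Usp20 and Usp28 were the members more than 2-fold higher after repeated atrophy, and their promoters are shown here with that of Usp2, which was lower, so that the starts of genes that differed in opposite directions can be read side by side. The sequences are those of RefSeq for the rat build GRCr8, from 250 bases before to 50 bases after the start, on the strand of the gene. They lie at chr4:159320907-159321206 (Usp5, minus strand), chrX:4042987-4043286 (Usp11, minus strand), chr3:34670435-34670734 (Usp20, plus strand), chr8:58222179-58222478 (Usp28, plus strand) and chr8:53310620-53310919 (Usp2, plus strand). Capitals mark matches on either strand to the GC box GGGCGG or the CCAAT box CCAAT.
Usp5: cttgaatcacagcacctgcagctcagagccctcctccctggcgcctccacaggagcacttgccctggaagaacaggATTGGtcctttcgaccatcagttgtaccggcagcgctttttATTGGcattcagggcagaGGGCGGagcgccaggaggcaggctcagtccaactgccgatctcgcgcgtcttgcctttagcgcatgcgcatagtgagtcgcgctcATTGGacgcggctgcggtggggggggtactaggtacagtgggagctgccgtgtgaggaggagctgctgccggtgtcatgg
Usp11: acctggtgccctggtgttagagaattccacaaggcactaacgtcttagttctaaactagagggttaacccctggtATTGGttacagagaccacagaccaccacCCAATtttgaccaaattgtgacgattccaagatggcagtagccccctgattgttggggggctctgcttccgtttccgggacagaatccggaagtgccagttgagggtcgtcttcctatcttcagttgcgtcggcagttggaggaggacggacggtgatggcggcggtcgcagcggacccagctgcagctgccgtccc
Usp20: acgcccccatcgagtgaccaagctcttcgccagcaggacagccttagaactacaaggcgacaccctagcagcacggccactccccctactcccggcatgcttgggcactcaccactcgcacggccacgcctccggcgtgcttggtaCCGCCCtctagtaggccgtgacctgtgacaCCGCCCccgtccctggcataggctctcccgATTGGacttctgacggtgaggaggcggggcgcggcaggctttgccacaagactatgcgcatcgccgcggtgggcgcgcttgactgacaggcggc
Usp28: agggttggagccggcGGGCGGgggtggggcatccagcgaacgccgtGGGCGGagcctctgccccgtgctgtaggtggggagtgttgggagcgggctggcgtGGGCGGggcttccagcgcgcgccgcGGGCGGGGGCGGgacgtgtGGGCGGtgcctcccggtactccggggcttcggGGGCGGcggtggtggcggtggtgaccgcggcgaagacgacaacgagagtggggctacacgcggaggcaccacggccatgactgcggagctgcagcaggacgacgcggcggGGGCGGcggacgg
Usp2: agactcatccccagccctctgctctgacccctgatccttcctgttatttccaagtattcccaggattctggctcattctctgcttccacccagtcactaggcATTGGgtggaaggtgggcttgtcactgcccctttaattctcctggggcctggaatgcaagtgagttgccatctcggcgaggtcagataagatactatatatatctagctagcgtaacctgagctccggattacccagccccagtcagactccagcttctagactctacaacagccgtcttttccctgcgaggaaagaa
The Usp28 promoter held 8 GC boxes and was 76.7% G and C, and the Usp11 promoter held none and was 55.7% G and C. The CCAAT box was found in the promoters of Usp5 (3), Usp11 (2), Usp20 (1) and Usp2 (1). Promoters were at hand for 37 members. The GC box was in 27 of them (73%), against 33.1% of all 33469 promoters of this length, and the median G and C share was 64.3% against 51.7%. The CCAAT box was in 24.3% of members and 37.5% of all, the E-box CACGTG in 10.8% and 6.42%, the cyclic AMP element TGACGTCA in 0% and 1.83%, and the FOXO motif GTAAACA in 2.7% and 3.78%. Of the 10 members higher after repeated atrophy 7 held a GC box and 4 a CCAAT box, and of the 5 lower members with a promoter 3 and 2 did. Members were counted with 1 promoter each, whereas the 33469 are all entries of this length, more than the 13458 symbols measured here. The shares therefore come from unlike sets, and none of them was set against genes expressed in muscle. These matches describe letters in a window and were not tested against the RNA levels.

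The remaining members that rose after repeated atrophy did so by less. Usp32, a large protease of Golgi and endosomal membranes, read 32.3, 45.1 and 33.8 CPM against 18.3, 23.5 and 30.8 CPM for the lowest, median and highest control limb. The groups did not overlap, with a difference of 0.59 (SE 0.17, adjusted p = 0.0146). Usp1, which with its activator Wdr48 removes ubiquitin from the DNA repair proteins Fancd2 and Pcna, read 25.9, 37.3 and 28.7 CPM after repeated atrophy against 13.3, 15.8 and 27.8 CPM. The groups overlapped, and the difference was 0.70 (SE 0.21, adjusted p = 0.0191). Usp33, the close relative of Usp20, rose by 0.69, the splicing protein Usp39 by 0.63 and Usp3, which acts on histones, by 0.52. With animal as a blocking factor, Usp5, Usp11, Usp20, Usp28, Usp14, Usp33 and Usp39 passed, and Usp1, Usp3 and Usp32 did not.

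Usp24 was the only member to pass on the low side in all 3 comparisons with control. It is a very large protease with reported substrates in the DNA damage response and lies at chr5:121080762-121210322 on the plus strand. Control limbs had a lowest, median and highest value of 169, 226 and 259 CPM. The repeated atrophy limbs read 129.6, 138 and 121 CPM and lay below all of them, a difference of -0.75 (SE 0.14, adjusted p = 0.000863). The atrophy limbs read 136.5, 198 and 126 CPM, with animal 367 inside the control range, and the difference was -0.54 (SE 0.14, adjusted p = 0.0256), or -0.40 to -0.73 with 1 atrophy animal left out (adjusted p = 0.00302 to 0.275). The recovery limbs read 134.9, 173 and 134.4 CPM, with animal 370 just inside, and the difference was -0.58 (SE 0.14, adjusted p = 0.0147). Only the repeated atrophy difference passed with animal as a blocking factor (-0.84, adjusted p = 0.00975). Sham left limbs read 183, 192 and 228 CPM, within the control range. With CPM as deposited the repeated atrophy difference was -0.37 and did not pass (adjusted p = 0.0619).

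Usp19 and Usp2 lay below the pooled control in the silenced limbs, and in the sham left limbs as well. Usp19, part of which is anchored in the endoplasmic reticulum, lies at chr8:109192425-109201067 on the plus strand. Its repeated atrophy limbs read 70.7, 70.1 and 125 CPM, and control had a lowest, median and highest limb of 87.3, 157 and 192 CPM. The groups overlapped, and the difference was -0.74 (SE 0.23, adjusted p = 0.0237). It was -0.69 with animal as a block and did not pass (adjusted p = 0.0564). After atrophy its limbs read 67.0, 108 and 99.2 CPM (-0.68, adjusted p = 0.0693), or -0.45 to -0.87 with 1 of these animals left out (adjusted p = 0.0275 to 0.486), and in recovery 101, 112 and 93.6 CPM (-0.49, adjusted p = 0.17). The lowest control limbs were those of animals 364 and 367. Sham left limbs read 89.3, 151 and 76.0 CPM and were 0.50 below control (-0.50, adjusted p = 0.6), which did not pass. Within animals the left limb differed from the right by a mean of -0.50 after atrophy (-1.22 to 0.11), -0.72 in recovery (-0.74 to -0.66), -0.69 after repeated atrophy (-1.14 to -0.30) and -0.23 in sham animals (-0.50 to 0.28).

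Usp2, whose RNA is known to follow the daily clock in many tissues, lies at chr8:44414023-44438325 on the plus strand. Its atrophy limbs read 68.2, 83.2 and 85.4 CPM and lay below every control limb, whose lowest, median and highest values were 98.7, 115 and 162 CPM. The difference was -0.67 (SE 0.17, adjusted p = 0.0238), and -0.59 to -0.76 with 1 atrophy animal left out (adjusted p = 0.0156 to 0.262). The repeated atrophy limbs read 70.2, 70.3 and 109 CPM (-0.62, SE 0.17, adjusted p = 0.0124), a call that held with animal as a blocking factor (-0.54, adjusted p = 0.0226), and the recovery limbs 90.1, 122 and 100.5 CPM (-0.28, adjusted p = 0.296). Sham left limbs read 66.1, 111 and 70.1 CPM, which was -0.65 from control (SE 0.19, adjusted p = 0.471). Sham right limbs, at 78.8, 106 and 96.2 CPM, included 2 below the lowest control limb. Against pooled control the differences of Usp2 after atrophy and repeated atrophy were thus close in size to that in sham left limbs. Within animals its left limb level differed from the right by a mean of -0.45 after atrophy (-0.75 to -0.24), -0.59 in recovery (-0.77 to -0.40) and -0.54 after repeated atrophy (-0.68 to -0.32), and by -0.21 in sham animals (-0.45 to 0.06), smaller than the means of the TTX groups but with overlapping ranges, and the difference from sham was not tested.

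The other lower members after repeated atrophy were Usp54 (-0.53), Usp10 (-0.49), which acts on p53 and binds G3bp1, Usp25 (-0.49), the close relative of Usp28, and Usp7 (-0.46), which acts on Mdm2 and p53. Usp7, Usp10 and Usp54 lay below every control limb and Usp25 overlapped control. None of these 4 passed with animal as a blocking factor, and Usp25 passed in 1 of the 9 fits that each left out 1 animal.

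In recovery Usp4, Usp24, Usp36 and Usp47 were lower than control and Usp46 was higher. Of these, Usp4 alone also passed against atrophy and against repeated atrophy, so the others are not shown to differ between recovery and the silenced groups. Usp4, a relative of Usp11 and Usp15 with known substrates in signalling and splicing, lies at chr8:109036099-109080428 on the plus strand. Its recovery limbs read 107, 112 and 131 CPM and lay below every control limb, whose lowest, median and highest values were 160.3, 186.5 and 270.3 CPM. The difference was -0.73 (SE 0.17, adjusted p = 0.0128). The atrophy limbs read 229, 223 and 284 CPM and the repeated atrophy limbs 179, 236 and 287 CPM, and neither group passed against control. Recovery was 1.06 below atrophy (-1.06, SE 0.21, adjusted p = 0.00882), and repeated atrophy was 0.98 above recovery (SE 0.21, adjusted p = 0.00451), with no overlap of limbs in either. Sham left limbs, at 184.5, 187 and 211.5 CPM, sat in the control range. With animal as a blocking factor the recovery difference was -0.48 (adjusted p = 0.0972), and neither call against the silenced groups held. Within animals the left limb differed from the right by a mean of 0.10 after atrophy, -0.48 in recovery and 0.24 after repeated atrophy. These means lie closer together than the unpaired differences. The count of members in recovery rested on each animal of the group: without animal 369, 370 or 371 it was 0, 2 and 1 in limma, with 7 members at an unadjusted p under 0.05 in the first case. The background fell alike, to 2.89%, 6.07% and 6.35% of rows.

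Usp4 has a second row with a model shorter by 141 bases. Per base of its model it held 11.1% ± 6.3 of the level of both rows in control (SD, n = 9), 13.4% ± 5.3 after atrophy, 20.6% ± 6.0 in recovery and 15.2% ± 10.7 after repeated atrophy (n = 3 each). The ranges overlapped, and the second row did not pass in recovery (0.43, adjusted p = 0.529). With animal as a blocking factor it was 0.83 above control in recovery and did not pass either (adjusted p = 0.17). In the recovery animals 369, 370 and 371 it read 29.2, 37.7 and 20.6 CPM on the left and 14.3, 19.6 and 13.3 CPM on the right. This is the opposite direction to the main row. How reads shared by both models were split is not given in the sources used here.

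Usp36, a nucleolar protease needed for ribosome production, read 15.3, 17.5 and 18.3 CPM in recovery and 21.03, 26.3 and 31.2 CPM in the lowest, median and highest control limb (-0.57, SE 0.16, adjusted p = 0.0257). Usp46, which like Usp1 and Usp12 is activated by Wdr48, read 9.80, 11.6 and 11.6 CPM against 6.29, 7.09 and 9.73 CPM and was the member that rose (0.52, SE 0.15, adjusted p = 0.0303). Neither overlapped control. Usp47 was lower by the test as well (-0.44). Usp45, with a part in the repair of crosslinked DNA, read 17.3, 18.6 and 12.6 CPM in recovery against 7.69, 9.62 and 20.7 CPM and did not pass (0.54, adjusted p = 0.189). Usp1 at 28.2, 23.5 and 26.7 CPM was 0.49 above control and did not pass (adjusted p = 0.128). In recovery the fibroblast markers were higher too (5 of 5 passed, summed level 1212 to 1915 CPM against 189 to 603.5 in control), as were 5 of 8 macrophage markers (131 to 230 against 47.0 to 164 CPM), 4 of 5 T and B cell markers (18.7 to 37.8 against 6.33 to 20.5 CPM) and 1 of 3 satellite cell markers (16.5 to 28.1 against 6.53 to 13.6 CPM). All markers of these lists were measured, with 1 of the T and B cell list below 0.1 CPM in control and in recovery, and their part in the Usp differences was not tested.

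After repeated atrophy the median difference was -0.01 over the fibroblast, -0.39 over the macrophage and 0.08 over the T and B cell markers, 3 of 5 endothelial markers were lower (131 to 175 against 195 to 265 CPM summed), 1 of 3 satellite cell markers was higher (31.1 to 54.9 against 6.53 to 13.6 CPM summed) and 1 of 7 muscle fibre markers was lower. The median difference was -1.03 over the muscle fibre, -1.02 over 3 erythroid and -0.64 over the endothelial markers. After atrophy the medians were -0.09, 0.12 and -0.06 over the fibroblast, macrophage and T and B cell markers, 1 of 3 satellite cell markers was higher (13.1 to 73.1 CPM summed) and 1 of 7 muscle fibre markers was lower, with medians of -1.39 over the muscle fibre, -0.49 over the erythroid and -0.37 over the endothelial markers. The part of these in the Usp differences was not tested.

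Between the treated groups, recovery against atrophy had 0 members higher and 2 lower (Usp4 and Usp20), with a background of 5.77% higher and 4.85% lower. Repeated atrophy against recovery had 6 higher (Usp20, Usp5, Usp11, Usp4, Usp3 and Usp39) and 0 lower, with a background of 10.3% and 11.3%. Repeated atrophy against atrophy had 0 members pass in limma with a background of 0%, with 2 members and 907 rows at an unadjusted p under 0.05. The larger number of members that passed after repeated atrophy than after atrophy is thus not a shown difference between these 2 groups. Without recovery animal 370 or without repeated atrophy animal 365, 3 members passed between repeated atrophy and recovery (background 10.7% and 14.7%). Without atrophy animal 367, 3 passed between recovery and atrophy (Usp4, Usp20 and Usp11, background 12.7%), and 1 did so without any 1 of animals 362, 365, 369, 370 and 372, with backgrounds of 5.9%, 7.56%, 1.69%, 2.77% and 4.71%. Every call between recovery and the other treated groups was lost with animal as a block (limma, 2 members against atrophy and 6 against repeated atrophy at an unadjusted p under 0.05), where the background was 0.0143% and 0.0499%.

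The count after atrophy depended on the animals included. Of the 10 members higher after repeated atrophy, the left limb exceeded the right in 10 in animal 362, in 7 in animal 372 and in 5 in animal 367, with medians of 0.93, 0.22 and 0.03 on the log2 scale. By this median animal 362 had the largest differences, and animal 372 lay nearer to animal 367 than to it. Single members varied: in animals 362, 372 and 367 the difference was 0.83, 1.04 and -0.005 for Usp11 and 1.19, 0.14 and -0.18 for Usp1. These differences also depend on the right limb. The 10 highest rows held 13.0%, 15.6% and 25.6% of the CPM of the left limbs of these animals, so by that measure animal 372 lay nearer to animal 362. Without animal 367, 8 members were higher and 4 lower after atrophy, beside a background of 8.86% and 8.99% of 13998 rows. The 8 were Usp1, Usp5, Usp11, Usp20, Usp28, Usp32, Usp39 and Usp53 and the 4 were Usp2, Usp10, Usp19 and Usp24. Usp53, at 26.5, 15.8 and 31.9 CPM after atrophy against 8.13, 11.2 and 25.6 CPM in the lowest, median and highest control limb, was 0.83 above control with animal 367 (adjusted p = 0.0748) and 0.74 to 1.18 with 1 atrophy animal left out (adjusted p = 0.0171 to 0.381). The background without animal 362 and without animal 372, where no member passed, was 0% and 1.4%.

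**Figure D4:**
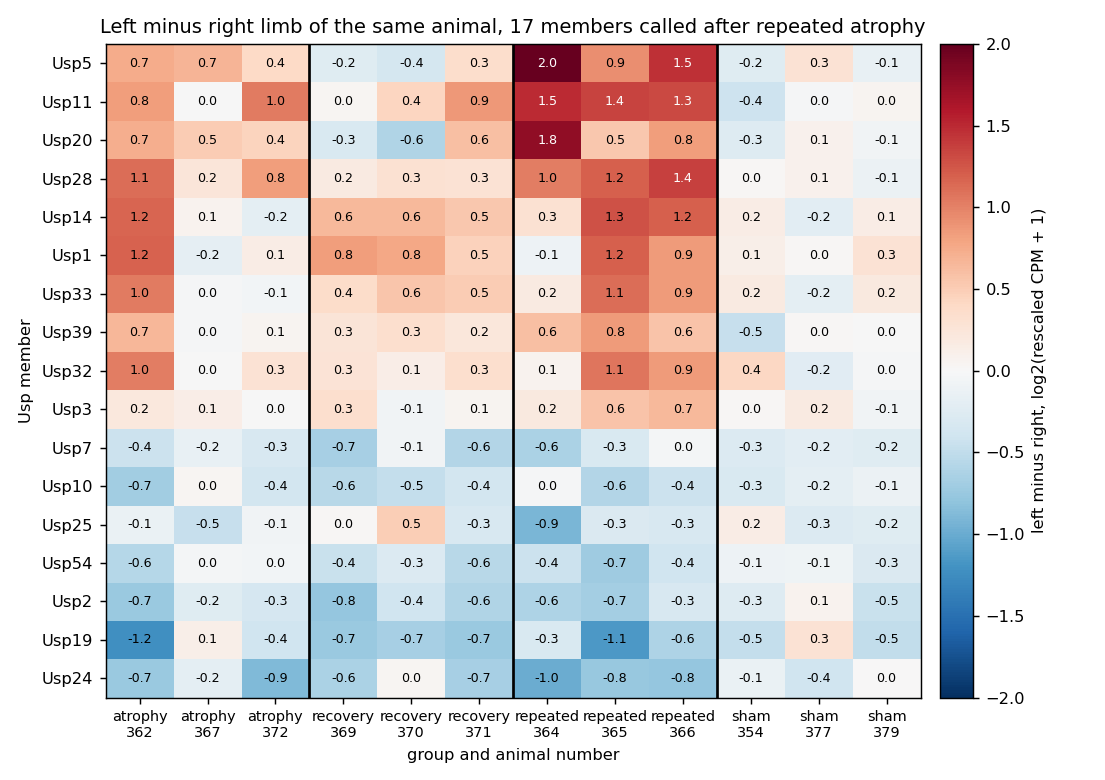
Difference between the left and right limb of the same animal, in log2(rescaled CPM + 1), for the 17 members that passed after repeated atrophy (rows) in the 12 animals (columns, grouped by time point and sham). The members were chosen from the repeated atrophy limbs. In the atrophy animals 362, 372 and 367, 10, 7 and 5 of the 10 upper members are higher in the left limb.

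The comparison within animals was stricter. With animal as a blocking factor, 7 members were higher and 4 lower after repeated atrophy (background 10.8% and 10.2%), and 9 of these 11 were among the 17 of the fit without it. The other 2 were Usp21 (-0.70) and Usp43 (-0.74), of which Usp43 was below 1 CPM in control. After atrophy and in recovery no member passed in limma with the block, where the background was 0% and 0.449%, with 6 and 13 members at an unadjusted p under 0.05.

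The scale also mattered for the lower members. With CPM as deposited, 16 members were higher and 0 lower after atrophy (background 20.3% and 2.33%), 0 higher and 1 lower in recovery (4.4% and 3.33%), and 17 higher and 0 lower after repeated atrophy (28.1% and 6.24%). On that scale 9 members passed between recovery and atrophy and 12 between repeated atrophy and recovery, beside a background of 17.9% and 27.2%. The median over the members was 0.40 after atrophy and 0.36 after repeated atrophy on this scale, beside 0.22 and 0.20 over all rows. The members called higher after repeated atrophy passed on both scales (10 of 10), and the 7 called lower did so only on the rescaled values. Each lower member lay below the typical row, and whether its RNA fell in the muscle as a whole cannot be told from these values.

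**Figure D5:**
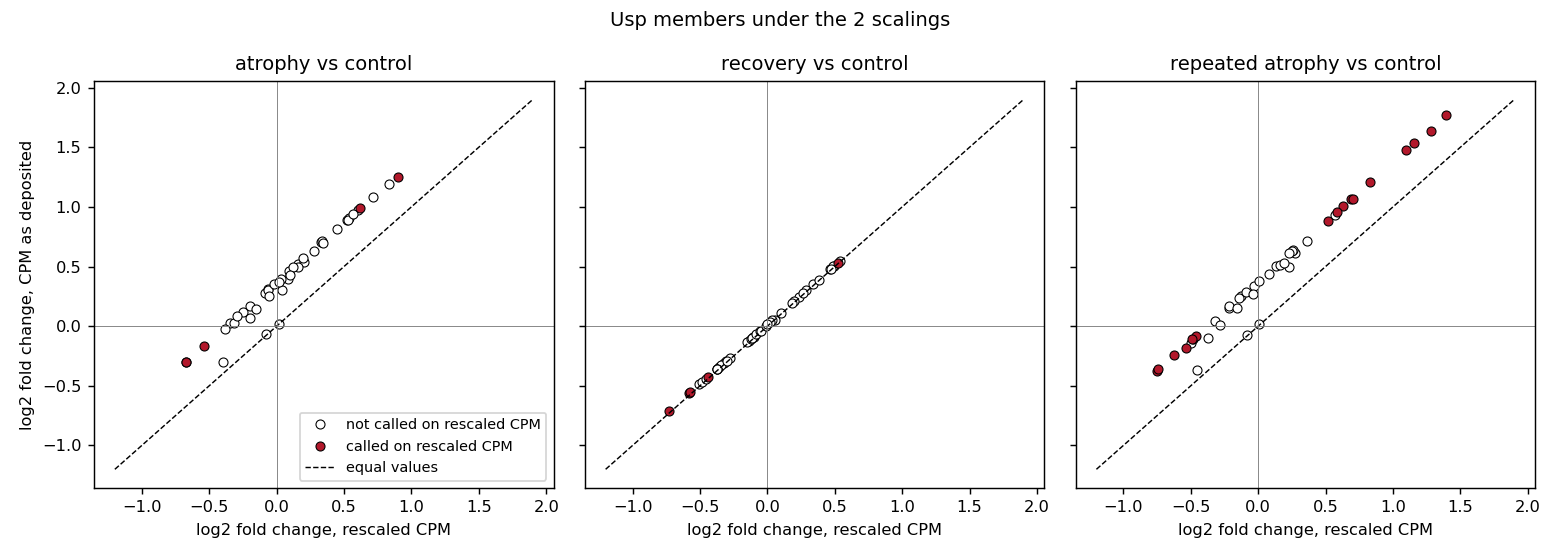
Log2 fold change of the 44 Usp members tested on rescaled CPM (horizontal) and on CPM as deposited (vertical) in 3 comparisons with control. Filled points passed on rescaled CPM. Nearly all points lie above the line of equal values after atrophy and repeated atrophy and close to it in recovery, and the median of all rows is 0.22, 0.20 and 0.02 on CPM as deposited, beside -0.002, -0.009 and 0.014 on rescaled CPM.

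By role, the recycling members had 2 of 3 higher and 0 lower after repeated atrophy, beside 13.2% and 12% of all rows. Those of membranes and organelles had 3 of 6 higher (Usp20, Usp32 and Usp33) and 1 lower (Usp19), and Usp30 of mitochondria (0.08) and the endosomal Usp8 (0.00) differed little. Nuclear and DNA damage members had 3 of 12 higher and 3 lower. Signalling members had 0 of 8 higher and 2 lower, with Usp18, which takes the ubiquitin-like Isg15 off proteins, at 0.23. In recovery the nuclear group had 0 higher and 3 lower (background 6.24% and 5.87%), a median of -0.34. These groups were drawn up with the results known and describe the members only.

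Other deubiquitinase families were set beside the Usp members. Over 33 tested genes of the other families, with Cyld and Pan2 counted in, 10 were higher and 2 lower after repeated atrophy, beside 13.2% and 12% of all rows. After atrophy 2 were higher and 1 lower (background 4.57% and 5.17%) and in recovery 1 and 4 (6.24% and 5.87%), and the medians were 0.29 after repeated atrophy, 0.29 after atrophy and -0.15 in recovery. When animal was a blocking factor, 7 were higher and 1 lower after repeated atrophy (background 10.8% and 10.2%) and none passed after atrophy or in recovery (limma, with 4 and 6 at an unadjusted p under 0.05). With CPM as deposited 21 were higher and 0 lower after repeated atrophy (background 28.1% and 6.24%), 17 and 0 after atrophy (20.3% and 2.33%), and 0 and 1 in recovery (4.4% and 3.33%). Otulin, which cuts linear ubiquitin chains, was the largest of the OTU family (3 of 11 higher, 1 lower) at 1.73 (SE 0.32, adjusted p = 0.000133), with limbs from 143 to 162 CPM against 33.4 to 84.5 in control. Uchl1, the neuronal ubiquitin hydrolase, was 1.81 above control (adjusted p = 0.00407) in the UCH family (2 of 4 higher), and its repeated atrophy limbs of 9.35 to 19.3 CPM overlapped control (1.05 to 12.7 CPM). Psmd14, the deubiquitinase of the proteasome lid, rose by 0.92 in the JAMM family (3 of 10 higher, 1 lower). The Josephin family had 1 of 3 higher and the MINDY and ZUFSP families 1 of 3. Cyld and Pan2, which share the Usp fold under other names, did not pass (-0.18 and -0.10).

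Partner and substrate genes are read against the same background after repeated atrophy, 13.2% of rows higher and 12% lower. Of 8 partner proteins 3 were higher after repeated atrophy and 0 lower: Eny2, which joins Usp22 in a chromatin complex, at 1.43 (adjusted p = 0.000561), Stam, which binds Usp8, at 0.55 and Wdr48 at 0.35. Eny2 passed with the block, and Stam (adjusted p = 0.083) and Wdr48 (adjusted p = 0.107) did not. Of 6 genes of ubiquitin and its activation 2 were higher and 1 lower: Rps27a, a ubiquitin and ribosomal fusion gene, at 1.06 (adjusted p = 8.1e-05), Uba6, a ubiquitin-activating enzyme, at 0.81 and the polyubiquitin gene Ubb at -0.57. Ubb did not pass with CPM as deposited (-0.18, adjusted p = 0.402) or with the block (adjusted p = 0.0613). Of 11 genes of the Isg15 system 0 passed in limma in the 3 comparisons with control, with 1, 1 and 2 of them at an unadjusted p under 0.05. Of 5 targets in the p53 and DNA damage response Pcna was higher after repeated atrophy (1.11, adjusted p = 0.00227).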

How the data were processed

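RNA-seq of the TA of 12 aged rats, both limbs, was analysed from 1 deposited table. Per the labels and methods, the authors removed contaminant reads with bowtie2 2.2.5, aligned the rest with STAR to the rat genome rn7 and worked in Partek Flow; annotation and counting are not given in the sources used here, and the methods name the DESeq2 median of ratios. As deposited, the authors' values are CPM: every column adds up to 1000000. Low values were whole reads in 90% to 92.1% of cases (tolerance 0.1 reads), so reads were not treated as recovered, and depth is inferred. 3 value columns matched no sample record and were not used. Columns on length and position were used as deposited.

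Of 14271 rows 28 exact duplicates were dropped. Limbs were divided by median of ratios factors (11397 rows above 0 in all limbs, 0.781 to 1.276), and log2(CPM + 1) was fitted with limma 3.58.1 (R 4.3.3, intensity trend) over the 18 limbs of the TTX animals. Rows above 0 in at least 3 limbs were tested (14031), with Benjamini-Hochberg adjustment over all of them. Sham left limbs were compared with control, and with sham right limbs with animal as a blocking factor. The fit was tested on simulated data. Figures were drawn in Python 3.11.15 with matplotlib 3.10.9.

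Titles give the animal of each limb, so left and right are paired by design. Over 10613 rows the correlation of their deviations from the group means ran from -0.327 to 0.838, and as a random effect it was 0.15. The main fit has no block: the study's methods pool the right limbs as control and give no model terms for the RNA data.

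The members and lists were chosen with earlier results of these data known. Values in every limb are given for members that passed in a comparison with control, did not overlap it and differed by at least 1.5-fold, and for the 3 largest rises and falls per comparison with a mean of at least 1 CPM. Of the lists at most the 4 genes with the lowest adjusted p are named. Promoters came from RefSeq (GRCr8); no coordinates were converted. Alternatives were other scalings, pseudocounts of 0.1 and 10, other filters, animal terms, control limbs, fold minimums and each animal left out. CPM as deposited together with the block was added after seeing the data.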

Additional observations from a re-analysis of the deposited data

Results flagged for a closer look

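The main row of Usp4, with the longer model, differed between recovery and repeated atrophy in direction. The left limb was below the right in all 3 recovery animals (-0.60, -0.52 and -0.33 on the log2 scale) and above it in all 3 repeated atrophy animals (0.15, 0.09 and 0.48). The difference between the group means was 0.725, and the fit with animal as a blocking factor gave 0.72 with an adjusted p of 0.109 (limma), which did not pass. The second row of Usp4 did not share this pattern. With the block it was 0.83 above control in recovery (adjusted p = 0.17). It was -0.42 in repeated atrophy against recovery (adjusted p = 0.654), and neither passed. The flag is thus one of the main row and not of the gene. In the control limbs, 14 members were examined for a limb set far apart from the others by Dixon's criterion, and 0 were found.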

How the results depend on the processing

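Over the named members and their comparisons, 748 values under alternatives kept their direction and side of the threshold, 164 lost the call, 6 gained it and 2 reversed. The 2 that reversed were Usp10 (0.024) and Usp7 (0.047) after repeated atrophy with CPM as deposited together with the replicate block, an alternative chosen after seeing the data. With CPM as deposited, 16 members passed after atrophy, 1 in recovery, 9 between recovery and atrophy and 12 between repeated atrophy and recovery, beside 22.6%, 7.73%, 17.9% and 27.2% of all rows. The difference in mean log2 level of the members, 0.091 after atrophy, -0.06 in recovery and 0.103 after repeated atrophy, became 0.424 and 0.441 after atrophy and repeated atrophy, and 0.238, 0.119 and 0.461 with CPM as deposited and the block. With the replicate block, which pairs the limbs of an animal, 0 members passed after atrophy, in recovery, between recovery and atrophy and between repeated atrophy and recovery (limma, 6, 13, 2 and 6 at an unadjusted p under 0.05), and 11 after repeated atrophy. The background with the block was 0%, 0.449%, 0.0143% and 0.0499% of all rows for the counts of 0, and 21.1% after repeated atrophy. The counts of 0 were the same with CPM as deposited and the block (9, 9, 2 and 6 at an unadjusted p under 0.05). With right limbs of the same time point 0 passed after atrophy and in recovery (7 and 14). With the groups compared alone, 1 passed after atrophy and 1 between recovery and atrophy, and with the animal as a random effect 1 did so in the latter, beside 7.44% of all rows. With a fold change of at least 1.5, 1 passed in recovery, beside 1293 of 14031 rows. The share of all rows is not given for right limbs of the same time point, the groups alone or CPM as deposited with the block. Those counts are therefore not read as a result about the members. Leaving out 1 animal at a time gave 0 to 12 members after atrophy, 0 to 6 in recovery, 7 to 18 after repeated atrophy, 1 to 3 between recovery and atrophy and 3 to 7 between repeated atrophy and recovery. The lowest counts came without recovery animal 369 in recovery (0) and without animal 365 after repeated atrophy (7). The background fell in these fits as well, to 2.89% of all rows in the first and to 7.63% higher and 6.71% lower in the second. After atrophy it was 0% without animal 362 and 8.86% higher and 8.99% lower without animal 367. Each treated group has 3 limbs, no detection limit was computed, and members below 1 CPM rest on few reads.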
